A study of Mus musculus with 6 samples.

Results

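The gastric mucosa of A4gnt-null mice was compared between 50 and 10 weeks of age. These are 2 of the 6 arrays of the study, chosen by their labelled genotype and age, with 1 mouse and 1 array at each age. Both mice were C57BL/6J animals labelled A4gnt null (which part of the gene is missing is not given in the labels), 1 of 10 weeks and 1 of 50 weeks. In each case the lining of the glandular stomach was taken off its muscle layer, and its total RNA was purified, labelled with Cy3 and hybridised to a one-colour Agilent array. The wild-type C57BL/6J arrays of the same 2 ages are set beside the null arrays, also with 1 mouse each, and the 5-week arrays were not used here. Of 31689 genes and unnamed transcripts on the array, 17245 were well above background on both null arrays. All levels below are log2 of the processed signal relative to the 75th percentile of the array, and all differences are 50 weeks minus 10 weeks on that log2 scale. With 1 mouse a side there is no replicate check, so no p-value or SD between mice can be given and age cannot be told apart from the individual mouse. The number of arrays limits the precision.

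The product of A4gnt is an enzyme that adds a terminal α1,4-linked N-acetylglucosamine to sugar chains of the gland mucin. That sugar is carried by the mucus of neck cells and pyloric glands, which lies under the surface mucus made by pit cells. The stomach lining also holds acid-secreting parietal cells, enzyme-secreting chief cells and endocrine cells, on a lamina propria with leukocytes, vessels, nerve fibres and a thin muscle of its own. Mice without A4gnt are known for hyperplasia and tumours of the glandular stomach, and the series title places the study in that question.

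The A4gnt probe (chr9:99521093-99521152, mm9) was not well above background on either null array, with signals of 2.94 and 2.11 units, whereas it stood at a level of -0.13 on both wild-type arrays. The mucosal markers were present at both ages. The parietal proton pump gene Atp4b stood at 8.09 and 7.56, the chief cell pepsinogen gene Pgc at 9.23 and 8.34, the surface mucin gene Muc5ac at 7.80 and 7.62, and the gland mucin gene Muc6 at 4.32 and 3.55. The Y-linked genes Ddx3y and Eif2s3y were above background on both null arrays and differed by -0.12 and 0.45. Markers of tissue outside the glandular lining were mixed. The squamous keratin gene Krt14 and the fat genes Adipoq and Plin1 were not well above background on either null array. The keratin gene Krt13 stood at 1.06 and 1.09, Fabp4, a fatty acid carrier of fat and vessels, at 4.41 and 3.45, the elastase gene Cela1 at 3.05 and 2.53, and the liver gene Ttr at 2.21 and 2.17. Alb, also a liver gene, stood far lower on the null arrays, at -3.07 and -3.97. Of 20 adipocyte genes 12 were above background on both null arrays, with a median difference of -0.52. The part of such tissue in the results was not tested. The 2 null arrays lay on the same slide. On them the share of the 43020 spots outside the controls that passed the background flag was 56.5% and 58.6%, their 75th percentiles were 327.5 and 402.8 units, and the median SD of probes spotted several times was 0.0705 and 0.0641 on the log2 scale.

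Some spots that were brighter at 10 weeks adjoined each other on the array. Of 320 spots at least 4-fold lower at 50 weeks, 125 (39.1%) had 2 or more neighbours within 2 rows and 1 column that were also at least 2-fold lower, against 4.80% of all spot positions. Of 115 spots at least 4-fold higher, 16 (13.9%) had such neighbours, against 1.14% of all positions. The number of such neighbours is therefore given below wherever a single-spot gene among the largest differences has 2 or more, and its part in those differences was not tested.

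**Figure D1:**
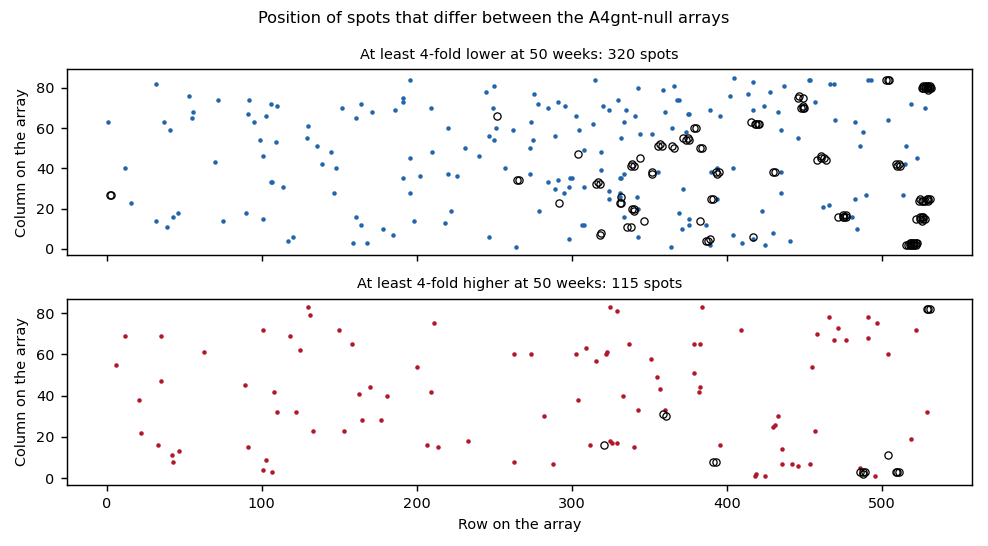
Array row (horizontal axis) and column (vertical axis) of the 320 spots at least 4-fold lower and the 115 spots at least 4-fold higher at 50 weeks on the A4gnt-null arrays, above background on at least 1 of them. Open circles are the 125 and 16 spots with 2 or more neighbours that differ at least 2-fold the same way. They form small groups, most of them in the upper panel.

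Most genes differed little between the 10-week and the 50-week null mouse. The median difference was 0.02, and 90% of genes lay between the 5th percentile of -0.73 and the 95th percentile of 0.46. Of the 17245 genes, 101 (0.586%) were higher by 2-fold or more at 50 weeks and 435 (2.52%) were lower by that much. At least 4-fold, 18 genes (0.104%) were higher and 43 (0.249%) lower. A further 1007 genes were above background at 50 weeks only, and for 45 of them (4.47%) the fold was at least 2. Another 408 were above background at 10 weeks only, and for 232 of them (56.9%) it was at least 2. For these genes the fold is a bound, taken against the lowest signal called above background on the other array or the probe's own signal if higher. That lowest signal lay at a level of -4.82 on the 10-week array and -5.32 on the 50-week array. The counts above background at 1 age only, and their percentages, are therefore not like for like between the 2 directions. Differences of list medians below are read against the overall median and these percentages. The split between higher and lower depended on the scaling, and with each array scaled to its median the counts at 2-fold were 167 and 271, while with scaling to the spike-in probes they were 53 and 857. Those scalings placed the median of all genes at 0.19 and -0.25.

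**Figure D2:**
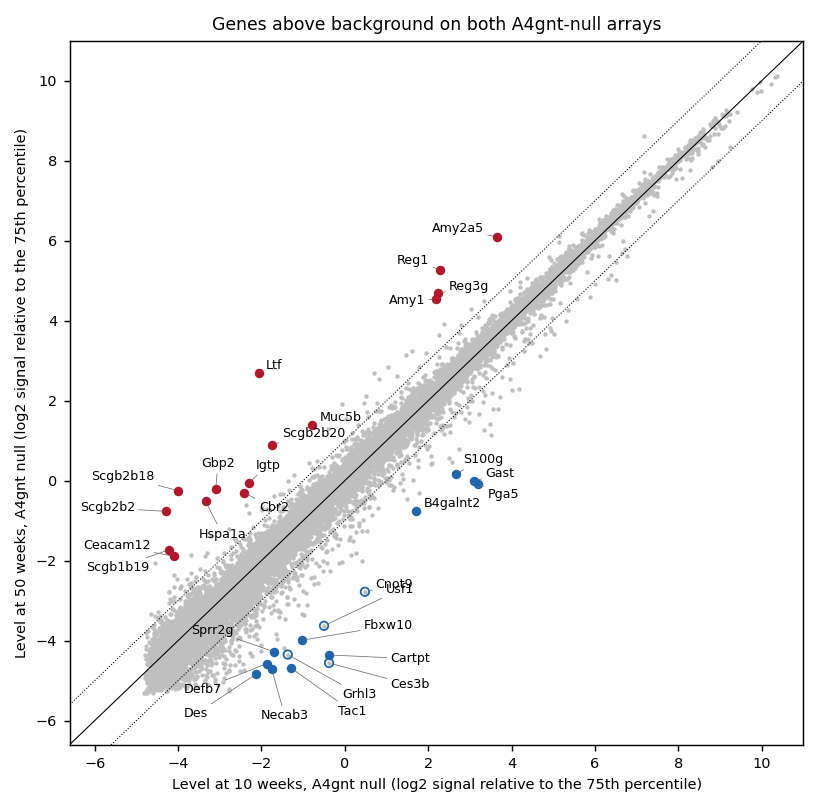
Level of each of the 17245 genes above background on both A4gnt-null arrays at 10 weeks (horizontal axis) and 50 weeks (vertical axis), both log2 of the signal relative to the 75th percentile, with 1 mouse per axis. The solid line marks equal levels and the dotted lines 2-fold. Red and blue points are the 15 largest differences in each direction, and open circles are genes whose spot has 2 or more neighbours differing the same way. Ltf stands farthest above the line.

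The largest difference upward was in Ltf, which encodes lactoferrin, an iron-binding antimicrobial protein of secretions and neutrophil granules. Its signal was 78.4 units at 10 weeks and 2590 units at 50 weeks, which was 26.9-fold higher after scaling (a difference of 4.75). The probe lies at chr9:110942873-110942932 (mm9). In the wild-type mice Ltf stood at -2.32 and -2.17, close to the 10-week null mouse at -2.06. Some other neutrophil genes were lower. The calgranulin genes S100a8 and S100a9 and the granule gene Retnlg were 3.08-fold, 3.08-fold and 2.88-fold lower at 50 weeks, although the S100a9 spot had 2 neighbours that differed the same way. In wild type they differed by -3.20, -2.25 and -1.87. Of 13 neutrophil genes above background on both null arrays, Ltf alone was at least 2-fold higher and 4 were at least 2-fold lower, while 4 had a difference above 0 and 9 below.

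The Reg genes encode secreted lectins of the gut lining, some of which kill bacteria and some of which are linked to regeneration. Of 7 listed, 4 were above background on both null arrays, and 3 of these were at least 2-fold higher at 50 weeks, with a list median of 1.98. The Reg1 signal was 1600 units at 10 weeks and 15500 units at 50 weeks, a 7.91-fold difference. The Reg3g signal was 1550 and 10300 units, a 5.41-fold difference. Reg3b was 2.89-fold higher, from a level of 2.39 to 3.92. Reg3d differed by 0.27, and Reg2 was above background at 50 weeks only, at least 2.32-fold higher. In wild type the same genes differed by 1.76 (Reg1), 0.18 (Reg3g) and 0.88 (Reg3b), and Reg2 was at least 13.5-fold higher at 50 weeks. At both ages the null mouse held Reg1, Reg3g and Reg3b above both wild-type mice, whose levels lay between -3.56 and 0.51.

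Several other products of the mucosal surface were higher at 50 weeks in the null mouse. The gel-forming mucin gene Muc5b went from 191 to 1050 units, 4.49-fold higher, and the membrane mucin genes Muc13 and Muc4 were 2.81-fold and 2.11-fold higher. Of the 5 membrane mucin genes above background on both arrays these were the 2 past 2-fold, and Muc1 differed by 0.35. Dmbt1, which encodes a secreted scavenger receptor that binds bacteria, was 2.73-fold higher, at 7.17 and 8.62. Duox2, an epithelial oxidase that makes hydrogen peroxide, was 2.73-fold higher, and its maturation factor Duoxa2 3.28-fold higher, with signals of 582 and 2350 units. No other of the 20 oxidase and antioxidant genes above background on both arrays was 2-fold higher. Hmox1, the haem-degrading enzyme, differed by -1.24 in the null pair and by -1.75 in wild type. Casp1, the caspase that matures interleukin-1β, was 3.41-fold higher, and Cbr2, a carbonyl reductase, 4.30-fold higher. In wild type Muc5b differed by 1.02, Muc4 by 1.34, Casp1 by 1.29, Muc13 by 0.31, Dmbt1 by 0.51, Duox2 by 0.43 and Duoxa2 by 0.01. At 10 weeks Duoxa2 stood lower in the null mouse (0.83) than in wild type (2.29), and at 50 weeks the levels were 2.55 and 2.29.

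A few interferon-inducible genes were higher at 50 weeks. Such genes are switched on by interferon signalling, in which STAT and IRF factors bind short elements near their starts. The interferon-inducible GTPases act on vacuoles that hold intracellular microbes. They were made a list after the values were seen. Of its 20 members, 11 were above background on both null arrays, 4 were past 2-fold upward and 0 downward, with a median of 0.82 and 3 of the 11 below 0. Gbp2, a guanylate-binding protein, had signals of 38.3 and 347 units and was 7.38-fold higher. Igtp had 66.0 and 387 units and was 4.77-fold higher. The Igtp probe was spotted 10 times. Its spots ranged from -2.42 to -2.15 at 10 weeks and from -0.13 to -0.00 at 50 weeks, so the spots of the 2 arrays did not overlap. Such spots repeat the measurement of 1 RNA sample per array, and those of the receptor gene Met, which differed by 0.30, did not overlap either. Tgtp2 was 2.94-fold higher and Irgm2 2.23-fold higher. In the wild-type pair the 4 genes differed by between -0.42 and 0.06. At 10 weeks Gbp2 and Igtp stood lower in the null mouse (-3.10 and -2.31) than in wild type (-2.20 and -1.46). At 50 weeks they stood higher (-0.21 and -0.06 against -2.35 and -1.40).

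The upstream sequence of these 4 genes is shown because they were picked as the list members past 2-fold upward. Each is given with the first match to the interferon-stimulated element GAAANNGAAA (searched on both strands, so also as TTTCNNTTTC) in capitals and with up to 40 bases on either side. The stretches are from RefSeq on GRCm38.p6, read in the direction of transcription, and lie upstream of the gene's start: Gbp2 at chr3:142620564-142620653 (plus strand), Igtp at chr11:58199482-58199555 (plus), Irgm2 at chr11:58214873-58214962 (plus) and Tgtp2 at chr11:49064233-49064322 (minus).
Gbp2: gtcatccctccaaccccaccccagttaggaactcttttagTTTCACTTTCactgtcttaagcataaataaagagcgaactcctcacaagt
Igtp: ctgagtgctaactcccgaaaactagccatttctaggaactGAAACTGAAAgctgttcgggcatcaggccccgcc
Irgm2: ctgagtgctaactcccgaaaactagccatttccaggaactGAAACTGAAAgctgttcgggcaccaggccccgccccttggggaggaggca
Tgtp2: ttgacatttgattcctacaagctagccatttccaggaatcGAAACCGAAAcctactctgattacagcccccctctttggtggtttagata
In all 4 the match began between 34 and 70 bases before the gene's start. Of the 11 family members with a sequence, 10 held this element within 250 bases upstream, against 2.98% of 32851 start sites of all genes. The gamma-activated sequence TTCNNNGAA, which reads the same on both strands, was found in 6 of the 11, against 7.02% of all start sites. A family member was counted if any of its start sites held the motif, while the percentages are per start site. The 2 shares are therefore not the same measure. Irgm1 and Gbp3, which hold the interferon-stimulated element, differed by 0.82 and 0.65. Ifi47, the 1 member without it, differed by 0.93, and Gbp2b and Tgtp1, which hold it, were not well above background on either null array. The 2 motifs overlapped in 0 of the family's windows. The matches are a description of the letters in these windows.

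The wider interferon response list had 32 genes above background on both null arrays, of which 5 were past 2-fold upward and 0 downward, with a median of 0.32 and 9 of the 32 below 0. Besides Gbp2 and Igtp these were Irf1, an interferon-induced transcription factor (2.01-fold), and the immunoproteasome subunit genes Psmb8 (2.13-fold) and Psmb9 (2.14-fold). Cxcl10, an interferon-induced chemokine, was above background at 50 weeks only and at least 2.42-fold higher. Isg15, an antiviral ubiquitin-like protein induced mainly by type I interferon, differed by 0.34. In wild type 0 of the list was 2-fold higher and 8 genes were 2-fold lower, with a median of -0.45. The null median was 0.05 with spike-in scaling and 0.49 with median scaling. T-cell genes above background on both null arrays had a median of 0.00, and 0 of 11 were past 2-fold.

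Several mast cell protease genes were higher at 50 weeks. Of 11 mast cell genes above background on both null arrays, 4 were at least 2-fold higher. Mcpt4 had signals of 335 and 1170 units (2.84-fold higher), and the carboxypeptidase gene Cpa3 25.2 and 81.4 units (2.62-fold). Cma2 and Mcpt1 were 2.33-fold and 2.05-fold higher, and Mcpt2 differed by 0.85. Fcer1a, a chain of the IgE receptor, was above background at 50 weeks only and at least 2.17-fold higher. The receptor gene Kit differed by -0.29. Hdc, the histamine-forming enzyme of mast cells and of the enterochromaffin-like cells of the stomach, was 2.75-fold lower, and 3.54-fold lower in wild type. In wild type Mcpt4, Cpa3, Cma2 and Mcpt1 differed by 0.47, 0.54, 0.01 and 0.11. In such bulk samples a change in the number of cells of a type and in RNA per cell cannot be told apart.

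Other leukocyte lists were close to the median of all genes or below it. Macrophage genes had a median of -0.36, with 1 of 26 at least 2-fold lower and 0 higher. Of 12 B-cell and plasma cell genes above background on both null arrays, 1 was past 2-fold upward and 1 downward, with a median of -0.10. Derl3, a gene of the secretory pathway in this list, was 2.04-fold lower in the null pair and 2.97-fold lower in wild type. Jchain, the joining chain of secreted IgA and IgM, was 2.81-fold higher (66.2 and 229 units), and 3.91-fold higher in wild type. Ccl28, a chemokine that attracts IgA plasma cells, was 2.41-fold higher in the null pair and 2.04-fold higher in the wild-type pair. Ccl21a, a lymphatic chemokine, was 3.70-fold lower in the null pair, against a wild-type difference of 0.90. Cxcl12, a stromal chemokine, was 2.39-fold lower in the null pair and 2.75-fold lower in wild type. The cytokine genes Il1b and Il11 stood at -1.33 and 0.39 in the 10-week null mouse and at -0.77 and 1.02 in the 50-week null mouse. Il6 was 2.22-fold lower at 50 weeks in the null pair, at low signals of 31.6 and 17.5 units. In wild type Il11 was 4.85-fold lower at 50 weeks, and Il6 was not well above background at either age. Il1b was above background at 10 weeks only in wild type, at least 5.09-fold lower at 50 weeks.

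Some of the largest differences upward were also present in wild type. Secretoglobins are small secreted proteins of glands and airways, and many mouse copies are near-identical, so the probes may not separate them. In a list made after the values were seen, 8 of 24 secretoglobin genes were above background on both null arrays and 4 of these were at least 2-fold higher. Scgb2b18 had signals of 20.5 and 339 units (13.5-fold higher), Scgb2b2 was 11.4-fold, Scgb2b20 6.31-fold and Scgb1b19 5.62-fold higher. Scgb1b20 and Scgb2b21 were above background at 50 weeks only and at least 16.0-fold and 6.40-fold higher. In the wild-type pair Scgb2b20 was 4.93-fold higher, and Scgb2b18 and Scgb2b2 were at least 25.1-fold and 19.0-fold higher. Ceacam12 was 4.64-fold higher in the null pair and at least 2.17-fold higher in wild type. The list median of 1.52 became 0.54 with normexp background correction and 0.41 over genes above background on all 4 arrays.

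The amylase genes, which encode starch-digesting enzymes of the salivary gland and pancreas, were higher at 50 weeks in both genotypes. Amy2a5 had signals of 4100 and 27400 units in the null mice (5.42-fold higher), and Amy1 1480 and 9350 units (5.13-fold), against 3.86-fold and 3.95-fold in wild type. The copies are near-identical and may share signal. Pancreatic protease genes were mixed in the null pair. The trypsinogen genes Prss1 and Prss2 were 3.07-fold and 3.30-fold lower, and Spink1, a trypsin inhibitor, 3.25-fold lower. Of 27 pancreatic enzyme genes above background on both null arrays, 3 (both amylases and Reg1) were past 2-fold upward and 10 downward. The elastase gene Cela1 differed by -0.52, and Cela3a and the carboxypeptidase gene Cpb1 were above background at 50 weeks only, at least 2.72-fold and 1.59-fold higher. The pancreatic lipase gene Pnlip was not well above background at 10 weeks and stood at -4.91 at 50 weeks. In wild type Pnlip was at least 68.8-fold higher at 50 weeks.

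Heat shock and circadian genes also differed. Hspa1a, the inducible 70-kDa heat shock protein, had signals of 32.3 and 281 units (7.07-fold higher), and the cochaperone genes Hsph1 and Dnajb1 were 2.23-fold and 2.20-fold higher. These were the 3 of 34 immediate-early and heat shock genes that were 2-fold higher, and in wild type they differed by -0.37, -0.15 and 0.27. The 1 gene of the list at least 2-fold lower was Hspb1, a small heat shock protein, at 1690 and 903 units (2.30-fold), and the list median was 0.35. The clock output genes Dbp and Tef, which encode PAR-bZIP factors, were 4.02-fold and 3.05-fold higher at 50 weeks, and the clock gene Per3 was 2.29-fold higher. Arntl (Bmal1), an activator of the clock that peaks at the opposite time of day, was 2.32-fold lower. Wild type differed the same way, by 2.62 (Dbp), 1.54 (Tef), 2.09 (Per3) and -1.74 (Arntl). The time of day of sampling is not given in the labels.

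**Figure D3:**
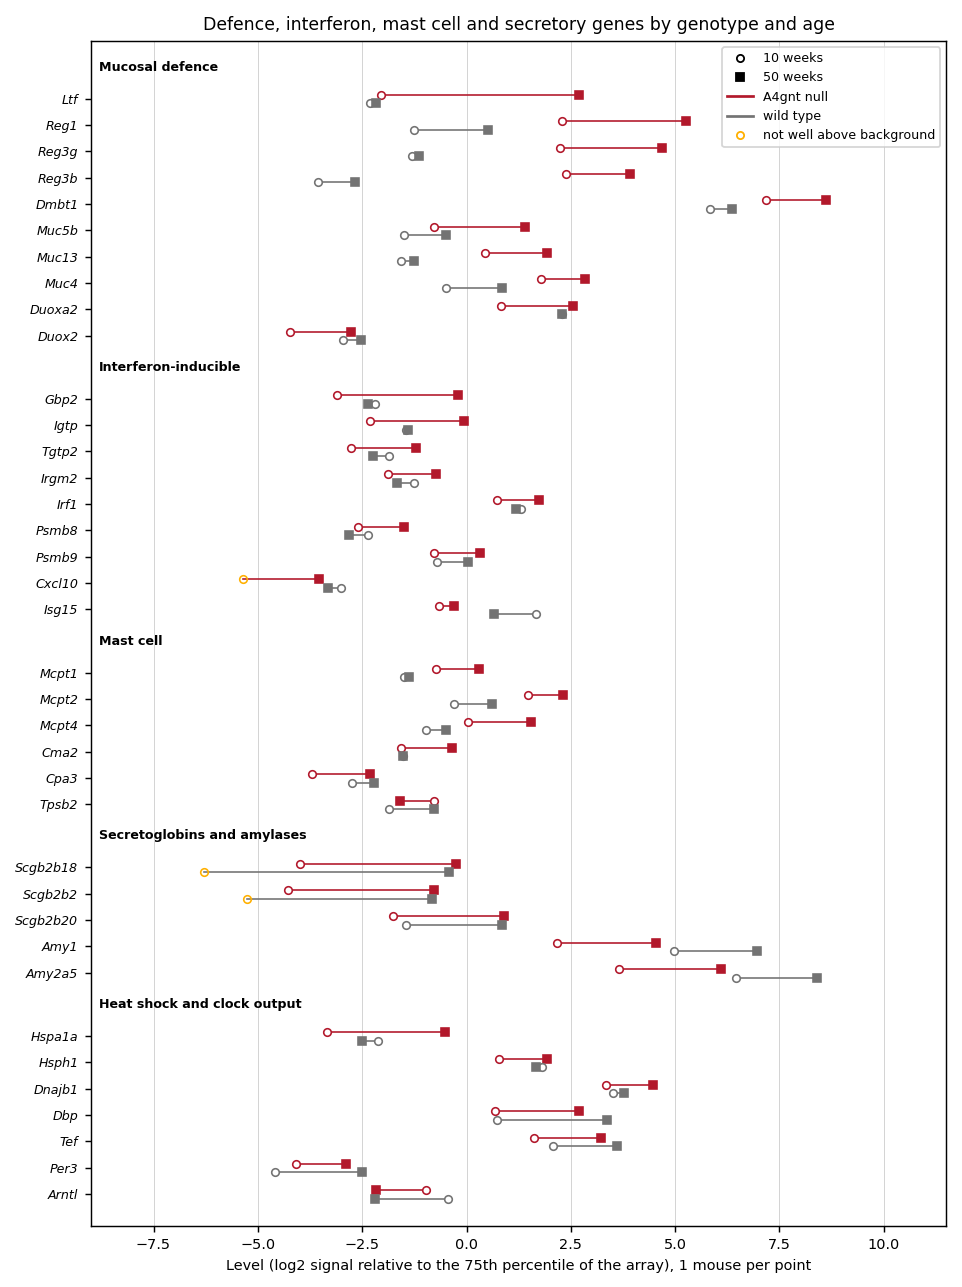
Levels (horizontal axis, log2 of the signal relative to the 75th percentile) of genes of mucosal defence, the interferon response, mast cells, secretoglobins and amylases, heat shock and the clock. Red lines join the A4gnt-null mice and grey lines the wild-type mice, with 10 weeks as open circles and 50 weeks as filled squares, 1 mouse per point, and yellow outlines mark signals not well above background. For Gbp2, Igtp and Hspa1a the red lines run far to the right while the grey ones are short, and for Dbp and Tef both run to the right.

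Smooth muscle was the list with the most genes at least 2-fold lower at 50 weeks in the null pair, though the neuronal, globin and neuropeptide lists had lower medians. Of 26 listed genes 20 were above background on both null arrays, 13 of them at least 2-fold lower and 0 higher, with a median of -1.52. The share of all genes at least 2-fold lower was 2.52%. Cnn1 (calponin, an actin-binding protein of smooth muscle) had signals of 3700 and 879 units and was 5.18-fold lower. The enteric smooth muscle actin gene Actg2 had 1120 and 325 units (4.25-fold lower), and the smooth muscle myosin gene Myh11 394 and 115 units (4.21-fold). Des, the muscle intermediate filament desmin, was 6.55-fold lower. Its 10 spots ranged from -2.22 to -2.04 at 10 weeks and from -5.43 to -4.49 at 50 weeks. The Des signal at 50 weeks was low, at 14.1 units, and its difference ranged from -2.98 to -1.07 over the alternative settings. Acta2 (α-smooth muscle actin) was 3.41-fold lower, with spots between 3.45 and 3.67 at 10 weeks and between 1.74 and 1.88 at 50 weeks. Synpo2, an actin-bundling protein of muscle, was 5.26-fold lower.

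The wild-type median of the smooth muscle list was 0.56, with 3 genes past 2-fold upward and 0 downward. Actg2 differed by 1.05, Myh11 by 1.04, Cnn1 by 0.80 and Des by 0.48. At 10 weeks the null mouse stood above the wild-type mouse for Cnn1 (3.50 against 3.04) and Myh11 (0.27 against -0.24), and at 50 weeks below it (1.13 against 3.84 for Cnn1 and -1.81 against 0.80 for Myh11). The summed level of the whole list was 109 and 48.2 times the 75th percentile in the null mice of 10 and 50 weeks, and 84.1 and 129 in wild type. The samples were peeled from the muscle layer, and the part of muscle left on them in these differences was not tested. Other genes of the stroma were lower to a smaller degree in the null pair. Fibroblast genes had a median of -0.57 (5 of 30 at least 2-fold lower), collagens -0.56 (2 of 23) and endothelial genes -0.45 (2 of 18), against wild-type medians of -0.46, -0.57 and -0.84. The basement membrane collagen genes Col4a1 and Col4a2 were 2.20-fold and 2.52-fold lower in the null pair, and 4.47-fold and 3.31-fold lower in wild type.

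Some genes of nerve cells were lower at 50 weeks. Of 11 genes above background on both null arrays in the enteric nerve and glia list, 2 were at least 2-fold lower and 0 higher, with a median of -0.41, and 5 more were at least 2-fold lower by bound. The glial gene S100b differed by 0.01. In a list of neuropeptide genes made after the values were seen, 5 of 6 genes above background on both null arrays were at least 2-fold lower. Tac1 is counted in this list, in the nerve and glia list and in the endocrine list, so these counts are not separate. Cartpt, which encodes a peptide of enteric neurons, had signals of 251 and 19.6 units (15.8-fold lower). Tac1, which encodes the gut motility peptide substance P, had 133 and 15.7 units (10.4-fold lower). Vip and Grp, for peptides of inhibitory and gastrin-releasing nerve fibres, were above background at 10 weeks only, at least 11.1-fold and 13.2-fold lower. Gal and Penk were 2.38-fold and 2.16-fold lower. Sst, which is made mainly by the mucosal D cells, differed by -0.43.

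Several neuronal structural genes were also lower. Of 9 such genes above background on both null arrays, in a further list made after the values were seen, 7 were at least 2-fold lower, with a median of -2.03, which was -0.81 with normexp background correction. Stmn3 and Stmn2 (microtubule regulators of neurons) were 4.42-fold and 3.62-fold lower, and Stmn2 is also counted in the nerve and glia list. Sncg, of peripheral neurons, was 4.54-fold lower. Kif5a, a neuronal kinesin, was 5.35-fold lower. Its spots ranged from -2.89 to -2.67 at 10 weeks and from -5.56 to -4.77 at 50 weeks. The Kif5a signal at 50 weeks was 10.9 units, near the lowest signal called above background on that array (10.1). Its difference ranged from -2.69 to -0.86 over the alternative settings. Snap25, which endocrine cells also make, differed by -0.30, from a level of 3.37. In wild type Cartpt and Tac1 differed by -1.70 and -1.43, Grp by -1.03, Stmn2 by -0.98 and Stmn3 by -0.29, and the neuropeptide list median was -1.18 against -1.73 in the null pair.

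Gast encodes gastrin, the hormone of the antral G cells. Its signal was 2820 units at 10 weeks and 400 units at 50 weeks, 8.66-fold lower in the null pair, while in wild type it stood at 4.30 and 5.02. The null mouse was below wild type at both ages. Of 19 endocrine genes above background on both null arrays, 3 were at least 2-fold lower (Gast, Tac1 and Hdc) and 0 higher, with a median of -0.51. Ghrl, the hormone ghrelin, differed by -0.03 at levels of 7.81 and 7.78.

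Of 14 chief cell genes above background on both null arrays, 3 were past 2-fold downward and 1 upward. The latter was Chil1, a chitinase-like protein, 2.48-fold higher, while in wild type it was above background at 10 weeks only and at least 1.62-fold lower. The pepsinogen gene Pga5 had signals of 3000 and 380 units in the null mice (9.72-fold lower) and was 5.41-fold lower in wild type. Cblif, the intrinsic factor, was 2.05-fold lower in the null pair and 2.19-fold lower in wild type, and Pgc differed by -0.90 and -0.50. The list medians were -0.41 and -0.68. Parietal cell genes had a median of -0.37 in the null pair and -0.47 in wild type, and the proton pump genes Atp4a and Atp4b differed by -0.62 and -0.53 in the null pair.

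Most mucous cell genes were within 2-fold. Of 14 surface pit genes above background on both null arrays, 0 were at least 2-fold lower and the 1 that was higher was Ltf. Muc5ac, the trefoil peptide gene Tff1 and the gastrokine gene Gkn1 differed by -0.18, -0.22 and 0.15. Among 11 gland mucous genes 3 were at least 2-fold lower and 0 higher, with a median of -0.38, which was -0.21 with median scaling. With spike-in scaling the pit and gland medians were -0.14 and -0.65, and the 2 lists were not tested against each other. Wfdc18, a protease inhibitor-like protein, had signals of 8470 and 3480 units (a difference of -1.58). Bpifb1, a secreted antibacterial lipid-binding protein, was 3.85-fold lower, and Aqp5, a water channel of the pyloric glands, 2.15-fold lower. Muc6 differed by -0.77 and Tff2 by -0.31, against -0.74 and 0.42 in wild type. At both ages Wfdc18 stood above wild type, at 4.69 and 3.11 against -3.08 and -0.61.

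**Figure D4:**
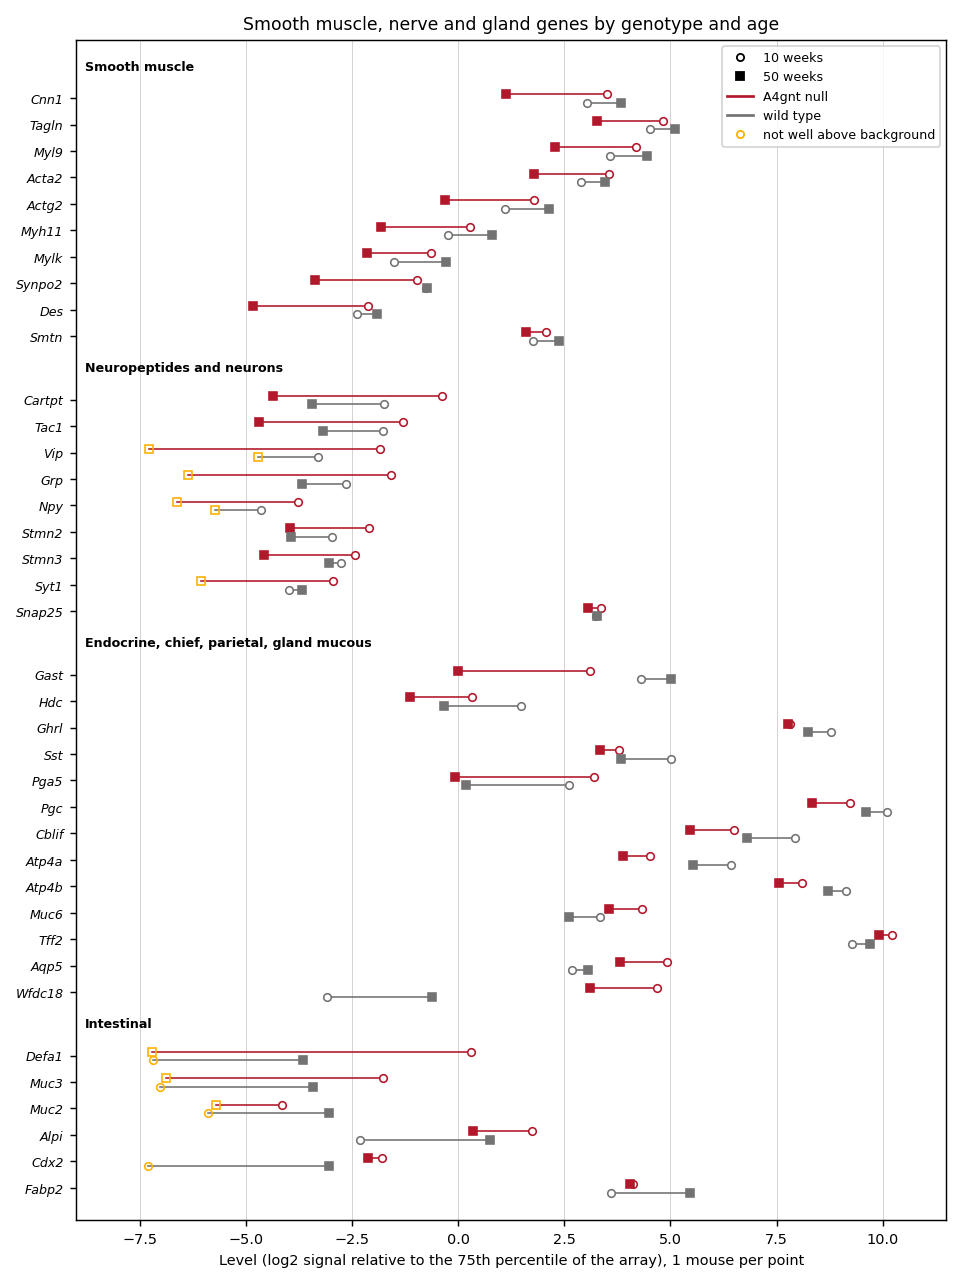
Levels (horizontal axis, log2 of the signal relative to the 75th percentile) of smooth muscle, neuronal, endocrine, chief, parietal, gland mucous and intestinal genes, drawn as in the plot of genes that were higher. The red squares of the smooth muscle genes (A4gnt null, 50 weeks) lie to the left of the other points, while the grey lines run to the right or are short.

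Paneth cell and other intestinal genes were detected in the 10-week null mouse. Paneth cells are secretory cells of the small intestine that are not part of a normal stomach lining, and their α-defensins come from many near-identical gene copies. Of 26 genes whose symbols start with Defa (a list made after the values were seen), 13 were above background at 10 weeks only, 12 of them at least 2-fold lower by bound. A further 3 were above background on both null arrays, of which Defa31 and Defa-rs10 differed by 0.05 and 0.03 and 1 was at least 2-fold lower. Defa31 has 2 probes, and its difference ranged from -3.2 to 0.22 over the alternative settings. The list median was 0.03, and it fell to -1.35 when probes were averaged per gene. The value of 0.05 for Defa31 therefore depends on the processing. Defa1 had signals of 404 and 2.72 units and was at least 49.2-fold lower, and Defa40 and Defa3 were at least 20.2-fold and 17.0-fold lower, with 2 neighbours that differed the same way for Defa3. Muc3, an intestinal membrane mucin, was at least 11.7-fold lower, the brush-border protease gene Mep1b at least 5.53-fold, and Muc2, the goblet cell mucin, at least 2.25-fold. Alpi, an intestinal alkaline phosphatase, was 2.65-fold lower (1100 and 511 units), the goblet cell peptide gene Tff3 2.49-fold, and Fabp1 2.33-fold.

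Other intestinal genes did not follow. Vil1, a brush-border protein, differed by 0.33, the transcription factor gene Cdx2 by -0.34 (its spot had 2 neighbours that were lower) and Fabp2 by -0.07, while Fcgbp, a mucus protein of goblet cells, was 2.16-fold higher. Of 24 intestinal genes above background on both null arrays 1 was past 2-fold upward and 4 downward. The summed level of the whole list was 865 and 915 times the 75th percentile in the null mice and 653 and 983 in the wild-type mice of 10 and 50 weeks. In the wild-type pair Defa1, Muc3 and Muc2 were above background at 50 weeks only, at least 2.65-fold, 3.10-fold and 4.07-fold higher, so they were seen in the 10-week null and the 50-week wild-type mouse. S100g, a calcium-binding protein of the duodenum, followed the same pattern, 5.63-fold lower in the null pair and 4.26-fold higher in the wild-type pair. The part of intestinal tissue in these samples was not tested.

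Genes of the Wnt pathway, which maintains gland stem cells, were lower or within 2-fold. Of 27 stem cell and Wnt genes above background on both null arrays, 7 were at least 2-fold lower and 0 higher, with a median of -0.39 (-0.22 with median scaling). The R-spondin genes Rspo1 and Rspo3, ligands that amplify Wnt signals, were 2.73-fold and 2.58-fold lower, the Wnt antagonist gene Sfrp1 was 2.31-fold lower, and the stem cell receptor gene Lgr5 stood at -1.66 and -2.66. Wild type differed by 0.08, -0.18, -0.94 and -0.51 for these genes. Grem1, a stromal antagonist of bone morphogenetic proteins, was 2.49-fold lower and stood at 0.18 and -1.14, above both wild-type mice at -2.34 and -3.01. The growth factor genes Hgf and Fgf7 were lower by differences of -1.16 and -0.93.

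Proliferation genes differed little in the null pair. Of 38 mitosis genes above background on both null arrays 0 were past 2-fold in either direction, and the median of 0.04 was -0.23 with spike-in scaling and 0.21 with median scaling. Mki67, a marker of cycling cells, had signals of 5410 and 6880 units (a difference of 0.05), and Top2a, the mitotic topoisomerase, and Ccnb1, cyclin B1, differed by -0.08 and 0.02. In wild type 34 mitosis genes were at least 2-fold higher at 50 weeks, with a median of 1.71, while 2.56% of all wild-type genes were that much higher and 3.55% that much lower. At both ages Mki67 stood higher in the null mouse, at 4.05 and 4.09 against 1.86 and 3.75 in wild type, and the summed level of the list was 141 and 145 in the null mice. DNA replication genes had a median of -0.13 in the null pair and 0.61 in wild type.

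Genes that build O-glycans, the sugar chains on which A4gnt acts, were mostly within 2-fold. Of 34 above background on both null arrays, 0 were at least 2-fold higher and 3 were lower. B4galnt2, which adds N-acetylgalactosamine to sialylated chains, had signals of 1070 and 238 units (5.54-fold lower, and 2.71-fold lower in wild type). Chst2, a sulfotransferase, was above background at 10 weeks only and at least 7.55-fold lower. The fucosyltransferase gene Fut2 and the branching enzyme gene Gcnt3 differed by 0.23 and 0.26.

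Other genes among the largest differences downward were red cell genes, Chac1 and a few genes of squamous or secretory cells. The haemoglobin gene Hbb-bt and the haem enzyme gene Alas2 were 4.22-fold and 5.05-fold lower in the null pair and 3.03-fold and 3.23-fold lower in wild type, and all 5 genes of a globin and haem list (made after the values were seen) above background on both null arrays were at least 2-fold lower. Chac1, a glutathione-degrading enzyme of the stress response, was 5.35-fold lower, against a wild-type difference of -0.69. Defb7, a β-defensin, stood at -1.88 and -4.58 in the null mice, and Sprr2g, a cornified envelope protein, was 5.99-fold lower, and both were also lower in wild type (-2.15, and at least 5.92-fold). Respiratory chain genes (57 above background) had a median of 0.01 and reference genes (17) a median of 0.05.

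A set of large differences rested on spots with changed neighbours. Among the 15 largest differences downward Ces3b (18.2-fold lower, 7 neighbours), Cnot9 (9.57-fold, 6), Usf1 (8.78-fold, 6) and Grhl3 (7.86-fold, 5) had 2 or more such neighbours, and Fbxw10 (7.80-fold) and Necab3 (7.66-fold) had 1 each. Of the 8 largest bounds downward 6 had them: Olfr1023 (3 neighbours), Kctd18 (6), Rpl10l (5), Fgf12 (4), Klrb1c (2) and Defa3 (2), with bounds between 17.0-fold and 68.1-fold. Of the 8 largest bounds upward Foxb1 (18.7-fold, 2 neighbours), Gabra3 (9.96-fold, 3) and Doxl2 (8.06-fold, 2) had them, and Scgb1b20, Scgb2b21, Clca3b (4.14-fold), Cnksr2 (3.48-fold) and Irx2 (3.30-fold) did not. None of the 15 largest differences upward did. With all such spots left out, an alternative added after seeing the data, the counts of higher and lower genes were 101 and 392 at 2-fold, and 18 and 35 at 4-fold.

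A gene with several probes gave a second measurement on the same RNA. For 3438 genes at least 2 probes were above background on both null arrays. Of the 12 of them at least 2-fold higher by the brighter probe, all 12 were higher and 9 at least 2-fold higher by the second probe. Of the 45 at least 2-fold lower, 41 were lower and 20 at least 2-fold lower by the second probe.

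**Figure D5:**
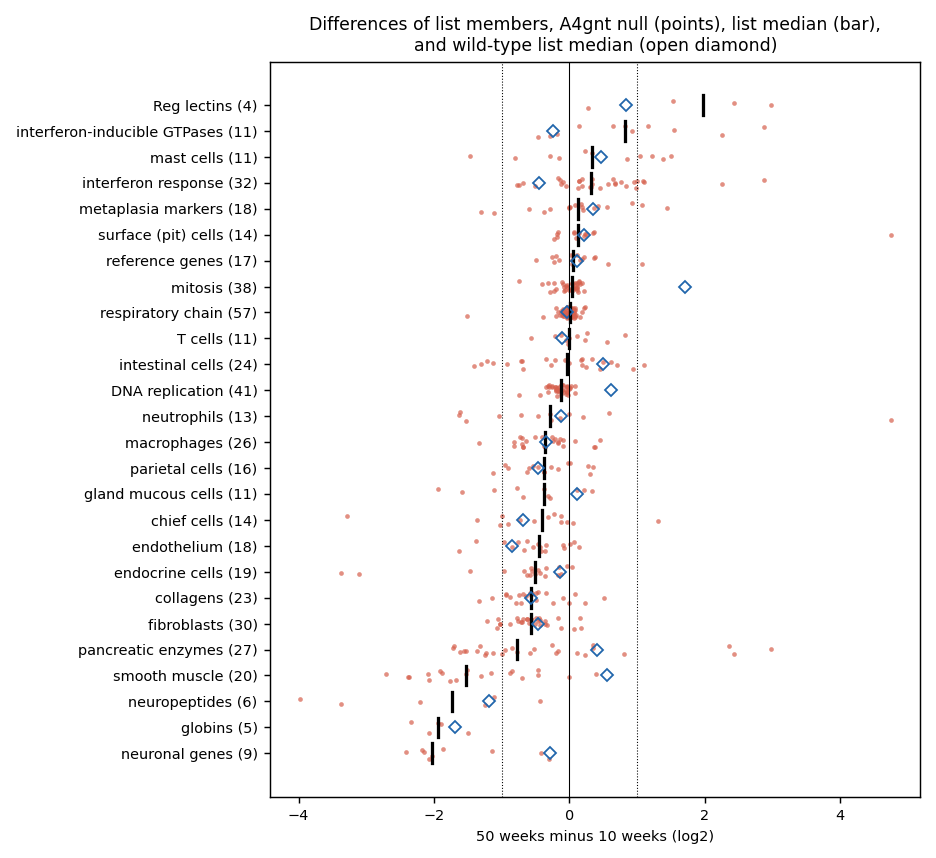
Difference between 50 and 10 weeks (horizontal axis, log2) in the A4gnt-null pair for each list member above background on both null arrays (points, their number in brackets), with the list median as a bar and the wild-type list median as an open diamond. Dotted lines mark 2-fold. By their medians, Reg genes lie farthest to the right and smooth muscle, neuropeptide, globin and neuronal genes farthest to the left, and the mitosis diamond stands apart from its bar.

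Over 16583 genes above background on all 4 arrays, the null and the wild-type differences had a Pearson correlation of 0.38, across genes of 1 pair of mice per genotype. Of 85 such genes at least 2-fold higher in the null pair, 24 also passed 2-fold upward in wild type, 1 passed it downward, and 60 were within 2-fold. Of 375 at least 2-fold lower in the null pair, 138 also passed 2-fold downward in wild type, 17 passed it upward, and 220 were within 2-fold. For reference, 17154 genes stood above background at both ages in wild type, which is not the same set. Of these, 2.56% passed 2-fold upward in the wild-type pair and 3.55% passed it downward. Whether the genes within 2-fold in wild type changed in the null pair alone was not tested. The pairs share no sample, but the wild-type arrays lay on another slide, so a difference between the genotypes cannot be told apart from the slide.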

How the data were processed

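Gene expression in the mucosa was measured on one-colour Agilent arrays, and 4 of the 6 arrays were used. Per the file headers, Feature Extraction 10.7.1.1 (Agilent) gave the background-subtracted intensity used. A second table deposited by the authors, on a log2 scale, equals these values plus 1 constant per array (within 0.01 for 100% of 39399 probes) and served as an alternative. From log2 of the processed intensity the log2 75th percentile of the array was subtracted. Control and outlier spots were left out (118 and 122 outlier spots on the null arrays), repeated spots averaged, and the probe with the highest mean over the 4 arrays taken for each gene. Probes were named through a RefSeq gene table (26055 by accession, 3195 by symbol, 930 by synonym) or the array's own name (9249). Well above background is the flag of the extraction software. No test was made, since each group is 1 mouse, and the difference code was tested on simulated data. Python 3.11.15, pandas 2.3.3 and limma 3.58.1 (normexp alternative) were used. Members and 51 gene lists were chosen with earlier results of these data known, and 6 more lists after the values were seen. Named were the 15 largest differences and 8 largest bounds per direction, up to 5 members of each list with the largest difference and up to 2 with the largest bound, and key members of each list. Other members named or drawn (Irgm1, Gbp3, Gbp2b, Tgtp1, Fabp2, Snap25 and further genes in the plots) were chosen after their values were seen. Some results are not reported here.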

Additional observations from a re-analysis of the deposited data

Results flagged for a closer look

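For 7 named genes above background on all 4 arrays the null and the wild-type pair differed at least 2-fold in opposite directions, each over 1 mouse against 1 mouse, so the difference between the genotypes was not tested. The calcium-binding protein gene S100g differed by -2.49 in the null pair and 2.09 in wild type, the intestinal phosphatase gene Alpi by -1.41 and 3.05, and the trypsin inhibitor gene Spink1 by -1.70 and 2.88. Wfdc18, of the gland mucous list, differed by -1.58 and 2.47. The smooth muscle genes Actg2 and Myh11 differed by -2.09 and -2.07 in the null pair, against 1.05 and 1.04. Aldh1a3, which makes retinoic acid, was the 1 gene that was higher in the null pair (1.18) and lower in wild type (-1.15).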

How the results depend on the processing

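With each array scaled to its median, 167 genes were at least 2-fold higher and 271 lower in the null pair, and 28 at least 4-fold lower. With scaling to 8 spike-in probes these were 53, 857 and 71. Normexp background correction with an offset of 50, which compresses dim genes, gave 39 and 125 at 2-fold and 8 and 7 at 4-fold, and list medians of 0.54 for secretoglobins and -0.81 for neuronal genes. Without a filter on dim probes the counts were 615 and 2123 at 2-fold and 75 and 396 at 4-fold, and the secretoglobin median turned to -0.10. Over genes above background on all 4 arrays that median was 0.41. Quantile normalization, the authors' table, the mean of a gene's probes, the probe chosen over 6 arrays, keeping outlier spots and leaving out spots beside changed spots kept each of the 4 counts within 1.5 times. Of 139 named genes at least 2-fold apart, 0 changed direction under any of the 11 alternatives, and 69 stayed past 2-fold under each that gave a value. Median and spike-in scaling shift all genes alike, to overall medians of 0.19 and -0.25, and so could not reverse a 2-fold difference. The medians of 26 of 57 lists, none above 0.22 in size, changed sign under at least 1 of the scalings (median, quantile, spike-in). No paired analysis was possible because each group holds 1 mouse. Signals near the lowest level called above background (11.6 and 10.1 units on the null arrays) carry the least certain folds.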
